A study of Mus musculus with 8 samples.

Results

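*Tmem176a*, *Tmem176b* and 7 *Ms4a* genes (*Ms4a4a*, *Ms4a4c*, *Ms4a6b*, *Ms4a6c*, *Ms4a6d*, *Ms4a7* and *Ms4a8a*) were followed in mouse bone marrow-derived macrophages (BMDMs) with and without the nuclear receptor coactivator *Ncoa6*. These 9 genes were chosen by name among the 50615 genes of the count table, with their lower counts in *Ncoa6*-KO BMDMs already known, and all 9 had enough counts to be fitted. RNA of macrophages from C57BL/6 mice was measured in 8 libraries, 2 for each of 4 groups. *Ncoa6*-sufficient BMDMs came from *Ncoa6* fl/fl mice, which the sample labels call WT although they carry the floxed gene, and *Ncoa6*-KO BMDMs came from *Ncoa6* fl/fl LysM CRE mice, in which Cre recombinase is made from the lysozyme locus *Lyz2* of myeloid cells. Bone marrow was cultured in M-CSF at 20 ng/ml for 6 days, and the cells then stayed in medium alone or were primed with LPS, a bacterial cell wall lipid, at 100 ng/ml for 4 h and given monosodium urate (MSU) crystals at 200 µg/ml for 2 h. LPS was never given without MSU, so their shares in a response cannot be told apart. By the study's methods the 2 libraries of a group came from different animals, and the sex and age of these animals, and whether cells of 1 animal went into both conditions, are not given in the sources used here.

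MS4A proteins are small membrane proteins that cross the membrane several times, like the tetraspanins, and gather with immune receptors at the cell surface or in endosomes. The best known of them are MS4A1 (CD20) of B cells and MS4A2, the beta chain of the high-affinity IgE receptor of mast cells, while several others are typical of monocytes and macrophages. TMEM176A and TMEM176B are relatives of this family that lie mostly in intracellular membranes, and TMEM176B is a cation channel studied in dendritic cells and in inflammasome activation.

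By the study's description the loxP sites flank a single exon of *Ncoa6*. Counts over all exons can hold reads of transcripts without that exon, so they do not measure the deletion itself. Whole-gene counts of *Ncoa6* in medium alone were 1515 and 1405 (normalized) without Cre and 784 and 622 with it. With LPS + MSU they were 1297 and 1173 against 563 and 526. The genotypes did not overlap, and the log2 fold changes were -1.05 (standard error, SE, 0.117, adjusted p = 0.00236 from edgeR) and -1.18 (SE 0.124, adjusted p = 0.00189 from edgeR). Normalized counts are counts scaled by edgeR's TMM factors to the mean library size, and the libraries held 25281955 to 33673552 counts before scaling. The macrophage markers *Adgre1*, *Csf1r* and *Cd68* had 21095 to 85784, 41875 to 63965 and 44604 to 66639 normalized counts over the 8 libraries, so these macrophage transcripts were present in every group. All 8 markers of their list were lower by log2 fold change in *Ncoa6*-KO BMDMs in both conditions. Of them *Fcgr1*, *Lyz2*, *Cd14* and *Itgam* were called lower in medium alone, after LPS + MSU or in both, as given below.

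The 2 *Tmem176* genes stand head to head on chromosome 6 of GRCm38. *Tmem176b* (ENSMUSG00000029810) spans chr6:48833818-48841496 on the reverse strand and *Tmem176a* (ENSMUSG00000023367) chr6:48840919-48847071 on the forward strand, so that their annotated spans overlap by 578 bases. The 7 *Ms4a* genes lie within 537 kb of chromosome 19. *Ms4a8a* (ENSMUSG00000024730, chr19:11067471-11081102, reverse strand) stands at the left end, followed by *Ms4a7* (ENSMUSG00000024672, chr19:11321039-11336146, reverse), *Ms4a4a* (ENSMUSG00000101389, chr19:11375523-11392790, forward) and *Ms4a4c* (ENSMUSG00000024675, chr19:11404770-11427246, forward). The *Ms4a6* genes follow in the order *Ms4a6c* (ENSMUSG00000079419, chr19:11469366-11482192, forward), *Ms4a6b* (ENSMUSG00000024677, chr19:11516512-11531256, forward) and *Ms4a6d* (ENSMUSG00000024679, chr19:11586604-11604849, reverse). Each value below is a count over all exons of a gene.

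Promoter windows from RefSeq (GRCm38.p6), each with 250 bases before and 50 after an annotated transcription start, were found for 8 of the 9 genes, 12 windows in all, with none for *Ms4a6d*. Of these, 3 are shown, for the *Tmem176a* start nearest to *Tmem176b*, for *Ms4a4c*, which had the largest response to LPS + MSU, and for *Ms4a7*, which had the highest mean count of the *Ms4a* genes (not scaled for length). Capitals mark the motif matches found in them.

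*Tmem176a*, chr6:48841233-48841532, forward strand: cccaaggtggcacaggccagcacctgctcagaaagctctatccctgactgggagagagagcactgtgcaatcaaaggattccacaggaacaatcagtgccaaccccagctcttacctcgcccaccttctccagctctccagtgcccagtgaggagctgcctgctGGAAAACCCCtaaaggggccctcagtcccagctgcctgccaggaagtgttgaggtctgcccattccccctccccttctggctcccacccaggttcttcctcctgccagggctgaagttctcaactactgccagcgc

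*Ms4a4c*, chr19:11407411-11407710, forward strand: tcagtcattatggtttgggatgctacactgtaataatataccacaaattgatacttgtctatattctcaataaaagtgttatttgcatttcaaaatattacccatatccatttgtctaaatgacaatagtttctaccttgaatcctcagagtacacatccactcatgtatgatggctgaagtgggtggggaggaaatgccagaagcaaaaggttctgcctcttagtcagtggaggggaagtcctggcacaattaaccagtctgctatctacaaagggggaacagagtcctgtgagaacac

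*Ms4a7*, chr19:11334646-11334945, reverse strand: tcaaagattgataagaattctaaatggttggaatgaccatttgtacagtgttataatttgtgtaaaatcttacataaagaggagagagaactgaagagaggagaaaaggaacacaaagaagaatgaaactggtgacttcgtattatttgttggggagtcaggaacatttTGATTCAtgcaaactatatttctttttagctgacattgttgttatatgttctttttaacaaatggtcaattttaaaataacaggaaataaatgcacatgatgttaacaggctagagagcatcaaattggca

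The capitals in the *Tmem176a* window are a match to the NF-κB consensus, 86 bases before the start. The same site, at chr6:48841397-48841406, lies 32 bases before a start of *Tmem176b* in the window of that gene, and those starts are 109 bases apart, so the matches of the pair are a single stretch of DNA. A separate NF-κB match stood 247 bases before the start of *Ms4a4a*. The NF-κB consensus was present in 8.46% of all 32851 windows on either strand. The capitals in the *Ms4a7* window are the AP-1 motif TGANTCA, which 7.81% of all windows held, and *Ms4a8a* also had a match to it. The other *Ms4a7* window, at a start at 11336146 on chromosome 19, held none of the 7 motifs, nor did the other windows of *Tmem176a* and *Tmem176b*. *Ms4a8a* further held AGGTCA, the nuclear receptor half-site, which 16.3% of all windows held. None of the 12 windows held the interferon response element ISRE (3.44% of all windows), the STAT motif TTCNNNGAA (8.30%), the C/EBP motif TTGCNNAA (10.8%) or the PU.1 motif searched (3.20%), and the *Ms4a4c* window held none of the 7 motifs. A match describes letters and is no evidence of binding.

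*Tmem176a* and *Tmem176b* both rose after LPS + MSU, and both were lower in *Ncoa6*-KO than in *Ncoa6*-sufficient BMDMs in each culture condition. *Tmem176b* had 514 and 343 normalized counts in *Ncoa6*-sufficient BMDMs in medium alone, 138 and 58.0 in *Ncoa6*-KO BMDMs in medium alone, 1236 and 822 in *Ncoa6*-sufficient BMDMs after LPS + MSU, and 444 and 270.0 in *Ncoa6*-KO BMDMs after LPS + MSU. *Tmem176a* had 229 and 137, 58.4 and 23.7, 675 and 439, and 345 and 130.1 in the same order. The genotypes did not overlap in either condition for either gene. Averaged over the genotypes, LPS + MSU raised *Tmem176a* by a log2 fold change of 2.05 (SE 0.322, adjusted p = 1.66e-04 from edgeR) and *Tmem176b* by 1.55 (SE 0.248, adjusted p = 1.90e-04). The knockout log2 fold changes, which are descriptions since lower counts in *Ncoa6*-KO BMDMs had chosen the genes, were -2.12 (SE 0.488) for *Tmem176a* and -2.10 (SE 0.363) for *Tmem176b* in medium alone, with 22.5% and 22.9% of the counts left. With LPS + MSU they were -1.22 (SE 0.417) and -1.52 (SE 0.336), with 42.7% and 34.7% left. Per kb of exon the level of *Tmem176a* relative to *Tmem176b* was higher in every library after LPS + MSU than in any library in medium alone. It was 0.248 to 0.277 in medium alone. After LPS + MSU it was 0.300 to 0.340, except for 0.483 in the first *Ncoa6*-KO library of that condition. Without that library the *Tmem176a* value after LPS + MSU was -2.11. Without the other *Ncoa6*-KO library of that condition it was -0.69. The libraries were stranded, and whether the counting used the strand is not given in the sources used here. The expected counts of both genes were whole numbers in all 8 libraries, so there was no sign that reads of the overlap were divided between them.

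The *Ms4a4* genes had the smallest and the largest response to LPS + MSU among the 9 genes. *Ms4a4a*, whose protein joins the beta-glucan receptor dectin-1 on macrophages, had 119 and 45.6 normalized counts in *Ncoa6*-sufficient BMDMs in medium alone, 62.6 and 14.9 in *Ncoa6*-KO BMDMs in medium alone, 262 and 132 in *Ncoa6*-sufficient BMDMs after LPS + MSU, and 54.9 and 32.2 in *Ncoa6*-KO BMDMs after LPS + MSU. The genotypes overlapped in medium alone and were apart after LPS + MSU. Its response to LPS + MSU averaged over genotypes was a log2 fold change of 0.69 (SE 0.428) and did not pass the test (adjusted p = 0.182 from edgeR). The adjusted p ranged from 4.22e-04 to 0.944 over the alternative settings, and *Ms4a4a* was called in 3 of them. The log2 fold change was 0.77 (adjusted p = 0.00235) with the replicate number as a block, 0.66 (adjusted p = 4.22e-04) with no filter on low counts, and 1.40 (adjusted p = 0.0179) without the first *Ncoa6*-KO library in medium alone. The knockout log2 fold change of *Ms4a4a* was -1.05 (SE 0.582) in medium alone and -2.17 (SE 0.609) after LPS + MSU. The first of these depended on single libraries, being -2.47 without the first and -0.41 without the second *Ncoa6*-KO library in medium alone, and -0.19 without the first and -1.57 without the second *Ncoa6*-sufficient library.

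*Ms4a4c*, a mouse gene of the same subgroup, had the largest response of the 9 genes. Its normalized counts were 199.6 and 93.8 in *Ncoa6*-sufficient BMDMs in medium alone and 63.3 and 30.7 in *Ncoa6*-KO BMDMs in medium alone. With LPS + MSU they were 14612 and 9885 in *Ncoa6*-sufficient BMDMs and 7347 and 5111 in *Ncoa6*-KO BMDMs. Both genotypes had far higher counts after LPS + MSU, and the *Ncoa6*-KO libraries stayed under the *Ncoa6*-sufficient ones in each condition. The log2 fold change to LPS + MSU was 6.69 (SE 0.277, adjusted p = 2.03e-09 from edgeR), a fold of 103. The knockout log2 fold changes were -1.62 (SE 0.421) in medium alone and -0.98 (SE 0.289) after LPS + MSU, so that 32.0% and 50.9% of the counts were left. *Ms4a4c* shares 1.66% of its stretches of 100 bases with *Ms4a4b*, and its expected counts were not whole numbers in 6 libraries, so some of its reads were divided between genes.

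The 3 *Ms4a6* genes rose together after LPS + MSU and were lower in *Ncoa6*-KO BMDMs without overlap in both conditions. *Ms4a6b*, known also from T cells, had 1142 and 627 normalized counts in *Ncoa6*-sufficient and 528 and 285 in *Ncoa6*-KO BMDMs in medium alone, and 5029 and 2993 against 1784 and 969.6 after LPS + MSU. *Ms4a6c* had 2717 and 1713 against 1373 and 965 in medium alone, and 21423 and 15277 against 12448 and 8953 after LPS + MSU. *Ms4a6d* had 4385 and 3185 against 2584 and 2151 in medium alone, and 21758 and 17022 against 14023 and 10422 after LPS + MSU. The log2 fold changes to LPS + MSU were 1.96 for *Ms4a6b* (SE 0.268, adjusted p = 5.33e-05 from edgeR), 3.12 for *Ms4a6c* (SE 0.189, adjusted p = 5.19e-08) and 2.36 for *Ms4a6d* (SE 0.140, adjusted p = 4.24e-08). *Ncoa6*-KO BMDMs held 45.9% and 34.3% of *Ms4a6b* (log2 fold changes -1.11, SE 0.380, and -1.54, SE 0.368, in medium alone and after LPS + MSU). They held 52.8% and 58.3% of *Ms4a6c* (-0.92, SE 0.253, and -0.78, SE 0.247) and 62.6% and 63.0% of *Ms4a6d* (-0.68, SE 0.191, and -0.67, SE 0.189). *Ms4a6c* overlaps a transcript on the opposite strand, BE692007, over 12027 bases, which had 11531 counts over the 8 libraries beside 51165 for *Ms4a6c*. Expected counts were not whole numbers in 8 libraries for *Ms4a6c*, in 6 for *Ms4a6b* and in 1 for *Ms4a6d*, so some of their reads were divided between genes.

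*Ms4a7*, a marker gene of resident macrophages, had the smallest knockout difference of the 8 genes other than *Ms4a8a*. It had 9124 and 7153 normalized counts in *Ncoa6*-sufficient and 7712 and 5454 in *Ncoa6*-KO BMDMs in medium alone, and 17308 and 14715 against 15349 and 12159.6 after LPS + MSU. The genotypes overlapped in both conditions. LPS + MSU raised it by a log2 fold change of 1.02 (SE 0.131, adjusted p = 3.18e-05 from edgeR), whereas the knockout log2 fold changes were -0.31 (SE 0.183) and -0.22 (SE 0.183), with 80.9% and 85.9% of the counts left.

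*Ms4a8a*, described in alternatively activated macrophages, was close to absent in medium alone. Its unscaled counts were 0 and 1 in *Ncoa6*-sufficient and 3 and 1 in *Ncoa6*-KO BMDMs in medium alone, and 19 and 11 against 9 and 9 after LPS + MSU. Summed over the genotypes, 48 counts after LPS + MSU stood against 5 in medium alone, a ratio of 16.6 after scaling with an exact 95% interval from 6.65 to 53.5 that covers counting error only. With LPS + MSU the *Ncoa6*-KO libraries held 18 counts against 30, a ratio of 0.587 with an interval from 0.308 to 1.09. With medium alone all 4 libraries were at or under 3 counts and no fold is given.

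**Figure D1:**
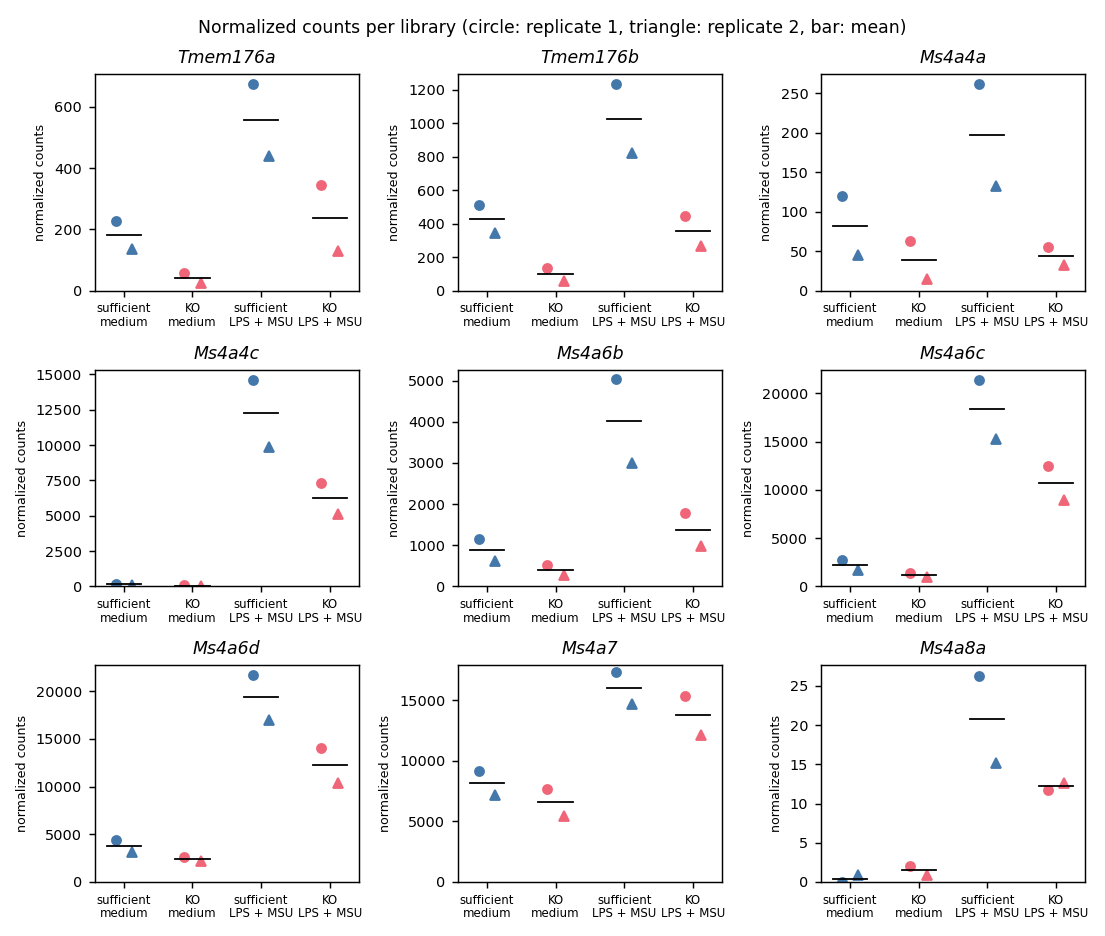
Normalized counts of the 9 genes (vertical axes, linear and from 0, a scale per gene) in each library of the 4 groups. Circles are replicate 1, triangles replicate 2 and bars the mean of both. Red (*Ncoa6*-KO) points lie under blue (*Ncoa6*-sufficient) ones for 6 genes in medium alone and 8 genes after LPS + MSU. These 8 include the low-count *Ms4a8a*, whose difference was within counting error. Circles lie above triangles in all 4 groups for every gene except *Ms4a8a*.

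The response to LPS + MSU averaged over both genotypes weighs both genotypes alike in this balanced design. It is not strictly independent of the knockout differences, since both use the same libraries and the same estimate of spread. The choice of genes was taken to rest on those differences alone. Earlier results of these data were known, so whether the response also entered the choice cannot be told. The tests of the response hold only if it did not. *Ms4a8a* passed the filter on low counts only through the groups with LPS + MSU, where it was high. It is therefore left out of the counts of genes called or without overlap that follow. Of the 8 other genes, 7 rose and none fell at an adjusted p-value under 0.05, and the exception was *Ms4a4a*. Over all 17625 genes tested, 29.5% rose, 35.4% fell and 64.9% changed in either direction. The median log2 fold change of the 8 genes was 2.01, against -0.10 over all genes. All 4 libraries after LPS + MSU lay above all 4 libraries in medium alone for 4 of them (*Ms4a4c*, *Ms4a6c*, *Ms4a6d* and *Ms4a7*), and for 26.5% of all genes. Scaling by library totals in place of TMM lowered the median of all genes by 0.65 on the log2 scale, and with it *Ms4a7* rose by 0.37 and *Ms4a4a* stood at 0.04, while the same 7 genes were called.

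**Figure D2:**
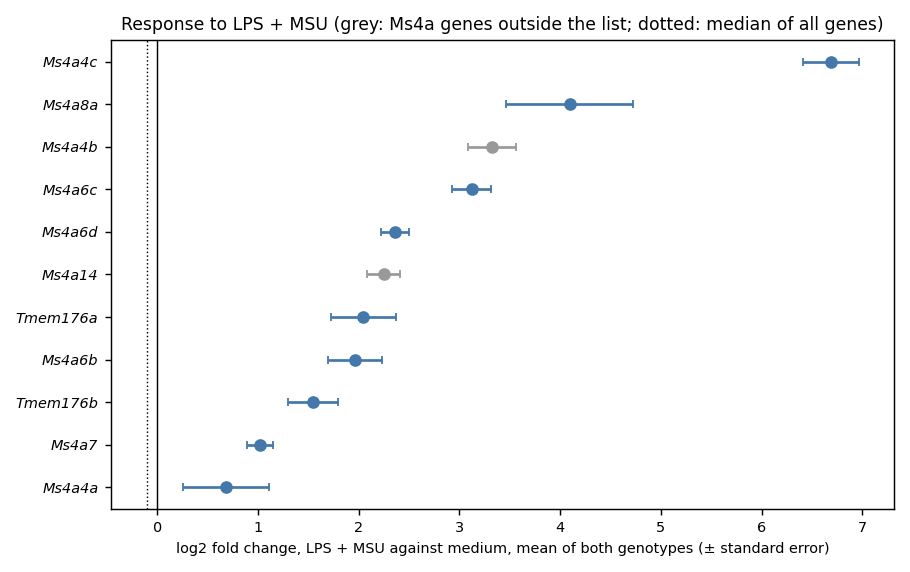
Log2 fold change from medium alone to LPS + MSU averaged over both genotypes (horizontal axis), for the 9 genes in blue and for *Ms4a4b* and *Ms4a14* in grey. Bars are standard errors from edgeR. The values run from 0.69 for *Ms4a4a* to 6.69 for *Ms4a4c*, and the dotted line marks the median of all genes at -0.10. *Ms4a8a* had few counts in medium alone and passed the filter only through the groups with LPS + MSU.

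Within each genotype, as a description, the log2 fold changes to LPS + MSU in *Ncoa6*-sufficient and *Ncoa6*-KO BMDMs were 1.60 and 2.49 for *Tmem176a*, 1.26 and 1.83 for *Tmem176b*, 1.24 and 0.13 for *Ms4a4a*, and 6.37 and 7.01 for *Ms4a4c*. For the *Ms4a6* genes they were 2.18 and 1.75 (*Ms4a6b*), 3.05 and 3.19 (*Ms4a6c*) and 2.36 and 2.37 (*Ms4a6d*), and for *Ms4a7* 0.98 and 1.06. *Ms4a8a*, with few counts in medium alone, is left out here. These values share their libraries with the knockout differences.

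Of the 8 genes other than *Ms4a8a*, the *Ncoa6*-KO libraries lay under the *Ncoa6*-sufficient ones for 6 in medium alone, where 24.5% of all genes did. After LPS + MSU they did so for all but *Ms4a7*, where 22.7% of all genes did. The same 6 genes (*Tmem176a*, *Tmem176b*, *Ms4a4c*, *Ms4a6b*, *Ms4a6c* and *Ms4a6d*) were lower in both conditions, as were 10.9% of all genes. Lower counts had chosen the genes, so nothing is read from these counts. The median log2 fold change of the 8 genes other than *Ms4a8a* was -1.08 in medium alone and -1.10 after LPS + MSU, against -0.03 and 0.00 over all genes, and over all 9 genes it was -1.05 and -0.98. Leaving out 1 library moved the medians, to -1.95 without the first and -0.72 without the second *Ncoa6*-KO library in medium alone, and to -0.58 without the first *Ncoa6*-sufficient library there. With LPS + MSU the median was -1.61 without the first and -0.72 without the second *Ncoa6*-KO library. The median was below 0 in each of these settings. Single genes moved likewise, *Tmem176b* in medium alone from -2.89 without the first to -1.63 without the second *Ncoa6*-KO library, and *Ms4a4c* from -2.26 without the first *Ncoa6*-KO library to -0.96 without the first *Ncoa6*-sufficient library. Without that *Ncoa6*-sufficient library *Ms4a6b*, *Ms4a6c* and *Ms4a6d* were at -0.62, -0.55 and -0.43, and *Ms4a7* reached -0.08 without the second *Ncoa6*-KO library in medium alone and -0.06 without that of LPS + MSU.

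**Figure D3:**
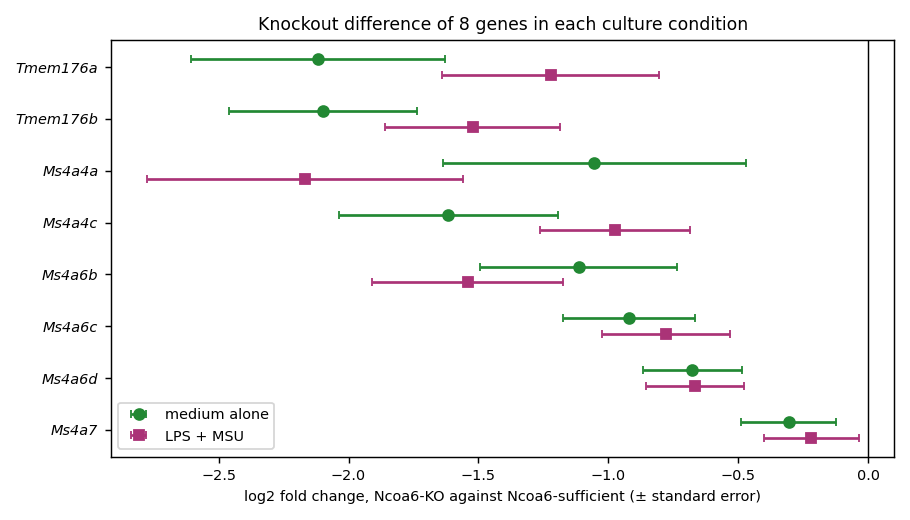
Log2 fold change of *Ncoa6*-KO against *Ncoa6*-sufficient BMDMs (horizontal axis) for 8 genes in medium alone (circles) and after LPS + MSU (squares). Bars are standard errors from edgeR. All values lie left of 0, from -2.17 for *Ms4a4a* after LPS + MSU to -0.22 for *Ms4a7* after LPS + MSU.

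Macrophage markers moved with the genotype beside these genes. The marker lists were chosen with earlier results of these data known, so the shares called in them are descriptions. Of 8 markers, 3 were called lower in *Ncoa6*-KO BMDMs in medium alone, namely the high-affinity IgG receptor *Fcgr1* (log2 fold change -2.05, adjusted p = 0.0115 from edgeR), *Lyz2* (-1.01, adjusted p = 0.0172) and *Cd14* (-0.78, adjusted p = 0.0298), where 1.3% of all genes were called lower. With LPS + MSU 3 were called lower, *Fcgr1* (-1.38, adjusted p = 0.0353), *Lyz2* (-0.95, adjusted p = 0.0142) and the integrin *Itgam* (-0.51, adjusted p = 0.0412), against 1.63% of all genes. *Lyz2* is also the locus that carries Cre. All 8 log2 fold changes were below 0 in both conditions. The summed markers ran from 388721 to 456129 normalized counts in *Ncoa6*-sufficient and from 248932 to 288002 in *Ncoa6*-KO BMDMs in medium alone. After LPS + MSU they ran from 507971 to 577703 and from 366953 to 393408. *Lyz2* made up a large part of these sums and of their difference between genotypes. Its means in *Ncoa6*-sufficient and *Ncoa6*-KO BMDMs were 240995 and 119774 in medium alone and 243832 and 126325 after LPS + MSU. Fewer cells of a type and less RNA per cell cannot be told apart in bulk RNA, and the part of these markers in the lower *Tmem176* and *Ms4a* counts was not tested. Of the tested markers of monocytes (6), B cells (4), mast cells (1), granulocyte progenitors (6) and ILC3 and Th17 cells (2), none was called in either knockout comparison by edgeR. At an unadjusted p-value under 0.05 there were 2, 0, 0, 0 and 0 in medium alone and 1, 1, 1, 0 and 1 after LPS + MSU, and DESeq2 called 1 monocyte marker in medium alone. Of 7 dendritic cell markers, *Itgax* was called lower after LPS + MSU (-0.74, adjusted p = 0.0255). In medium alone none of the 7 was called by edgeR, 1 at an unadjusted p-value under 0.05 and 1 by DESeq2. The mast cell markers *Fcer1a*, *Mcpt4* and *Tpsb2* and the ILC3 and Th17 markers *Il17a* and *Il22* were at 0 in every library, and *Ms4a1*, *Ms4a3*, *Ly6g* and *Cd209a* had at most 3 counts in any library. Other markers of the same lists were present. In *Ncoa6*-sufficient BMDMs in medium alone the mean normalized counts were 4655 for *Il7r* (ILC3 and Th17) and 310 for *Kit* (mast cells). They were 144 for *Cd22* (B cells), 148 for *S100a9* (granulocyte progenitors) and 758 for *Itgax* (dendritic cells).

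The numbered replicates differed in the same direction for nearly all of the genes. Replicate 1 lay above replicate 2 in all 4 groups for 8 of the 9 genes, as did 15.5% of all genes whose mean was 50 normalized counts or more (11.7% of all tested genes). The 32 ratios of replicate 1 to replicate 2 of these 8 genes ran from 1.18 to 4.19 with a median of 1.56. Their medians were 1.63 and 1.49 in *Ncoa6*-sufficient BMDMs in medium alone and after LPS + MSU and 1.96 and 1.54 in *Ncoa6*-KO BMDMs, whereas the medians of all genes with a mean of at least 50 were 1.02, 1.01, 1.01 and 0.995. The summed macrophage markers, of which *Lyz2* made up a large part, also had ratios above 1, of 1.17, 1.14, 1.16 and 1.07 in that order. The single markers did not all share this direction. *Lyz2*, *Fcgr1*, *Cd14*, *Adgre1* and *Cd68* had ratios above 1 in all 4 groups, whereas *Itgam* had ratios below 1 in all 4. The remaining markers of the list, among them *Csf1r*, lay on both sides of 1. The cause of the difference between replicates was not tested. The spread between replicates was therefore wide for the *Tmem176* pair and the *Ms4a4* genes and narrower for *Ms4a6d* and *Ms4a7*.

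**Figure D4:**
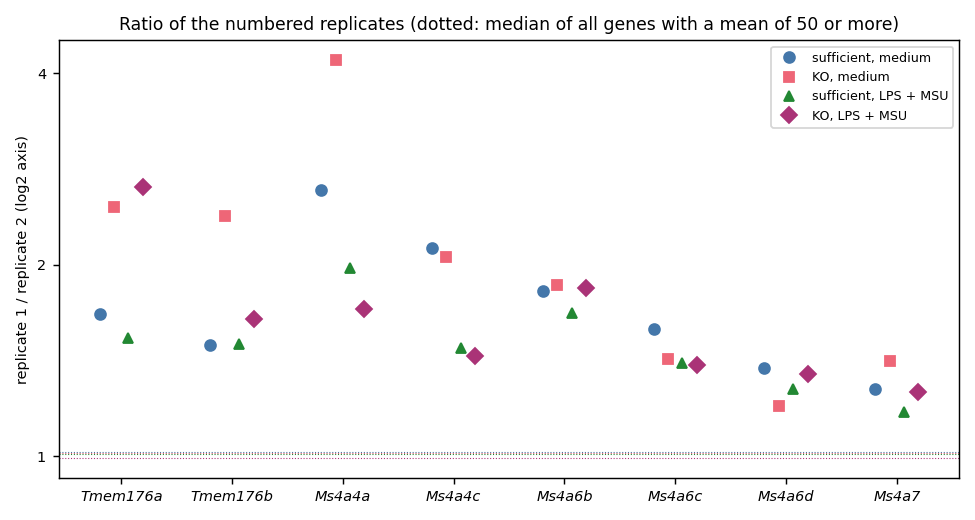
Ratio of replicate 1 to replicate 2 (vertical axis, log2 scale) in each of the 4 groups for 8 genes. All 32 points lie above 1, from 1.18 to 4.19, and dotted lines mark the median of all genes whose mean reached 50 normalized counts in each group, between 0.995 and 1.02.

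Levels of different genes were compared per kb of exon. In *Ncoa6*-sufficient BMDMs in medium alone *Ms4a6d* (2182 normalized counts per kb) and *Ms4a7* (1828 per kb) stood at the top and overlapped, followed without overlap by *Ms4a6c* (1080.4 per kb). *Ms4a6b* (197 per kb) and *Tmem176b* (181 per kb) overlapped, as did *Ms4a4a* (98.6 per kb), *Ms4a4c* (83.8 per kb) and *Tmem176a* (48.0 per kb) as neighbours in the order. *Ms4a8a* stood last at 0.240 per kb. The *Ms4a6* genes kept the order *Ms4a6d*, *Ms4a6c* and *Ms4a6b* by mean in all 4 groups. With LPS + MSU *Ms4a4c* moved up to the third place in both genotypes, at 6995 per kb in *Ncoa6*-sufficient BMDMs after *Ms4a6d* (11176 per kb) and *Ms4a6c* (8951 per kb), and at 3557 per kb in *Ncoa6*-KO BMDMs after *Ms4a6d* (7045 per kb) and *Ms4a6c* (5220 per kb). *Ms4a7* followed at 3596 and 3089 per kb. The third place was not apart from its neighbours, since *Ms4a4c* overlapped *Ms4a6c* in *Ncoa6*-sufficient and *Ms4a7* in *Ncoa6*-KO BMDMs. In *Ncoa6*-KO BMDMs in medium alone *Ms4a7* (1478 per kb) stood above *Ms4a6d* (1365 per kb), within their spread.

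Among the other *Ms4a* genes, 12 of 16 symbols were found in the table and 3 had enough counts to be tested. *Ms4a14* and *Ms4a4b* rose after LPS + MSU. *Ms4a14* had 2039 and 2489 normalized counts in *Ncoa6*-sufficient and 2037 and 1457 in *Ncoa6*-KO BMDMs in medium alone, and 6445 and 11009 against 9791 and 10656 after LPS + MSU. Its response was a log2 fold change of 2.25 (SE 0.165, adjusted p = 2.77e-07 from edgeR), and its knockout log2 fold changes were -0.37 (adjusted p = 0.566) and 0.23 (adjusted p = 0.663). *Ms4a4b*, known for dampening T cell activation, had 26.3 and 17.2 against 10.4 and 5.27 in medium alone, and 188 and 153 against 123 and 88.1 after LPS + MSU. It rose by 3.32 (SE 0.237, adjusted p = 2.07e-07), and its knockout values of -1.43 (SE 0.414, adjusted p = 0.126) and -0.69 (SE 0.272, adjusted p = 0.218) did not pass although the libraries did not overlap. *Ms4a4b* passed in medium alone when no filter on low counts was used (adjusted p = 0.00357) and with the replicate number as a term (adjusted p = 0.0204). *Ms4a4d* had 1 count over the 4 libraries in medium alone and 48 after LPS + MSU, a ratio of 83.2 with an exact 95% interval from 14.2 to 3352, and, like *Ms4a8a*, it passed the filter only through the libraries with LPS + MSU. None of the 3 was called in either knockout comparison by edgeR or DESeq2, and 1 passed an unadjusted p-value under 0.05 in each. In those comparisons 1.88% and 3.59% of all genes were called.

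Genes around both loci were compared in the same way. The 6 nearest tested protein-coding genes of the *Tmem176* pair lay 126 to 238 kb away, and 3 of them were called after LPS + MSU, *Igf2bp3* (log2 fold change 0.91) and *Malsu1* (0.59) higher and *AI854703* (-2.88) lower, with *Gimap6*, *Gimap9* and *Gpnmb* not called. Of the 6 nearest around the *Ms4a* genes, *Ccdc86* (2.68), *Olfr1417* (2.68) and *Stx3* (1.18) rose, *Prpf19* (-0.39) and *Mrpl16* (-0.22) fell, and *Ptgdr2* was not called. Over all genes 64.9% were called after LPS + MSU in either direction. None of the 12 was called in either knockout comparison by edgeR or by DESeq2, with 2 and 0 at an unadjusted p-value under 0.05. Within the *Ms4a* span, *Gm8369*, a gene model without an assigned function, rose after LPS + MSU by 3.22 (adjusted p = 4.59e-08 from edgeR), and its knockout values were -0.91 (adjusted p = 0.237) and -0.59 (adjusted p = 0.207).

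**Figure D5:**
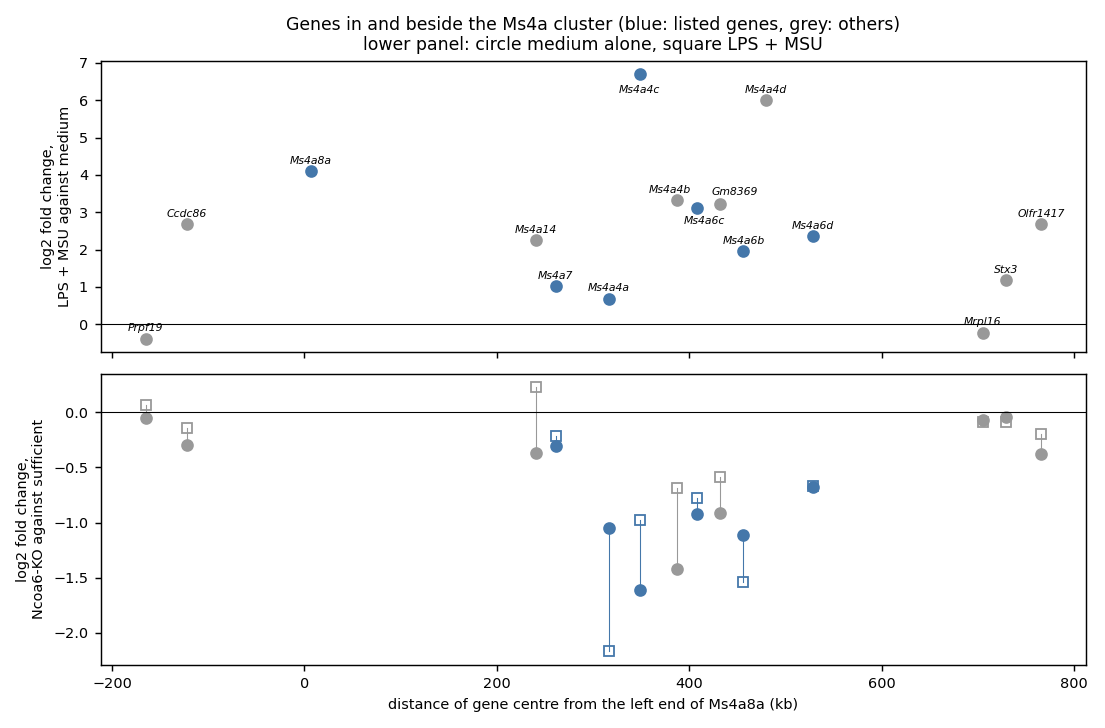
Log2 fold changes of genes in and beside the *Ms4a* span by the distance of their centre from the left end of *Ms4a8a* (horizontal axis, kb). The upper panel shows the response to LPS + MSU and the lower panel the knockout difference in medium alone (circles) and after LPS + MSU (squares), without the low-count genes *Ms4a8a* and *Ms4a4d* there, and *Ptgdr2*, also of low count, is in neither panel. Blue marks the 7 *Ms4a* genes described and grey the other genes. In the upper panel *Ms4a4c* (6.69) and *Ms4a4d* (6.01, from 1 count in medium alone) stand highest, and in the lower panel the outer genes lie between -0.38 and 0.06.

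The genes with the pattern nearest to *Tmem176b* over the 8 libraries, among 11218 genes whose mean reached 50 normalized counts, were *Pilrb2*, *Tmem176a* and *Treml2*. The measure was the root mean square difference of log2(normalized count + 1) centred on each gene's mean, and it was 0.256, 0.291 and 0.331 for them, beside 0.826 at the first percentile and 1.37 at the median of all genes. *Pilrb2*, a paired immunoglobulin-like receptor, had at most 126 normalized counts in *Ncoa6*-sufficient and 45.2 and 22.0 in *Ncoa6*-KO BMDMs in medium alone, and 352 and 321 against 125 and 78.3 after LPS + MSU. *Treml2*, a receptor of the TREM family, had 117 and 93.8 against 42.4 and 27.2 in medium alone, and 499 and 303 against 165 and 116 after LPS + MSU. Of the *Ms4a* genes *Ms4a6b* came nearest to it, in rank 7, and *Ms4a4a* was in rank 22. Nearest to *Ms4a7*, which had the highest mean count, were *Unc93b1*, which carries Toll-like receptors to endosomes, at 0.0661, the zinc importer *Slc39a1* at 0.0776 and *Agtrap* at 0.0811.

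Proteins known to work with MS4A or TMEM176 proteins were looked at in a list of 7 genes. LPS + MSU raised 3 of them, the inflammasome sensor *Nlrp3* (log2 fold change 4.29), the kinase *Syk* (1.57) and the Fc receptor chain *Fcer1g* (1.10), and lowered 3, *Card9* (-1.27), the dectin-1 gene *Clec7a* (-0.48, adjusted p = 0.0209 from edgeR) and *Trem2* (-0.43, adjusted p = 0.00142), while *Tyrobp* stood at -0.02. Over all genes 29.5% rose and 35.4% fell. None of the 7 was called in either knockout comparison by edgeR or DESeq2, and 2 in medium alone and 1 after LPS + MSU had an unadjusted p-value under 0.05. *Nlrp3* was at -0.38 (SE 0.117, adjusted p = 0.154 from edgeR) in medium alone and at 0.00 (SE 0.113, adjusted p = 0.969) after LPS + MSU. *Clec7a* was at -0.58 (SE 0.226, adjusted p = 0.289) and -0.52 (SE 0.231, adjusted p = 0.274) in the same order. The median of the list was -0.10 and 0.00, against the -0.03 and 0.00 of all genes.

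Of 19 tetraspanins, which resemble MS4A proteins in their passage through the membrane but are no relatives, 7 rose and 6 fell after LPS + MSU, with a median log2 fold change of 0.01. Over all genes 29.5% rose and 35.4% fell. Of the 7, *Tspan15* passed the filter on low counts only through the libraries with LPS + MSU. The largest changes were those of *Tspan15* from at most 1 count in any library in medium alone, *Tspan14* (-1.97), *Tspan32* (-1.30) and *Tspan3* (1.29). In *Ncoa6*-KO BMDMs *Tspan7* was called higher in medium alone (log2 fold change 1.15, adjusted p = 0.0251 from edgeR), as were 0.573% of all genes, and after LPS + MSU *Tspan7* (1.05, adjusted p = 0.0379) and *Tspan32* (0.83, adjusted p = 0.0127) were called higher, as were 1.96% of all genes, and *Tspan33* lower (-0.74, adjusted p = 0.0498). Their median knockout log2 fold changes were -0.03 and 0.08, beside -0.03 and 0.00 over all genes. DESeq2 called 1 tetraspanin in each knockout comparison. This list too was chosen with earlier results of these data known.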

How the data were processed

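RNA-seq of 8 BMDM libraries (TruSeq Stranded mRNA, paired reads) was analysed. The authors aligned reads with STAR 2.7.3a to GRCm38 and deposited RSEM 1.3.3 expected counts per gene, not normalized, for 50615 genes, of which 50295 had a symbol. Counts summed to 25281955 to 33673552 per library. The expected counts were rounded, genes with a summed count under 10 were left out (the filter named in the study's methods), and 17625 genes were fitted with edgeR 4.0.16 (R 4.3.3) by the quasi-likelihood method with TMM (factors 0.766 to 1.29) over the 4 groups, with 4 residual degrees of freedom. Dividing reads between similar genes makes expected counts less certain than unique counts. Calls used Benjamini-Hochberg adjusted p-values under 0.05 over all genes.

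The 9 genes and all lists were chosen with earlier results of these data known. The knockout differences of the 9 genes carry no test. Those of the lists are given with adjusted p-values that do not account for this choice. The 9 genes were tested on the response to LPS + MSU averaged over genotypes, which was taken not to have chosen them. The genes named are these 9, *Ncoa6*, tested *Ms4a* genes, the 3 tested protein-coding neighbours on each side of each locus, the 4 largest called changes per list and comparison and those that make up a count of 5 or fewer, and the 3 genes nearest in pattern to *Tmem176b* and *Ms4a7*. Lists were partners, tetraspanins, and markers of macrophages, monocytes, dendritic cells, B cells, mast cells, granulocyte progenitors and ILC3 and Th17 cells. *Clec7a*, *Trem2*, *Tyrobp*, *Gm8369*, and the markers *Adgre1*, *Csf1r*, *Cd68* and those at or near 0 are named beyond this rule and were picked after their values were seen. Positions and exon lengths are from GENCODE M21 (GRCm38). Intervals of low counts are exact binomial and cover counting error only. Alternatives were DESeq2 1.42.0, its size factors, other filters, limma-voom (limma 3.58.1), a replicate block, leaving out each library, and library totals, which was added after seeing the data. The code was tested on simulated data. The symbols *Ms4a6e*, *Ms4a9*, *Ms4a19* and *Ms4a20* were not matched and are not analysed here.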

Additional observations from a re-analysis of the deposited data

How the results depend on the processing

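*Ms4a8a* passed the filter only through the groups with LPS + MSU and is left out here. Of the other 8 genes, all but *Ms4a4a* were called higher with LPS + MSU under every alternative that kept all 8 libraries. In the main fit 29.5% of all genes were called higher. *Ms4a4a* was called too with no filter on low counts (log2 fold change 0.66, adjusted p = 4.22e-04 from edgeR) and with the replicate number as a term (0.77, adjusted p = 0.00235). When leaving out each library the log2 fold changes of these 8 genes stayed above 0. The lowest was 0.37 for *Ms4a4a*, which reached 1.40 without the first *Ncoa6*-KO library with medium alone. All genes called with LPS + MSU numbered 11434, and 10271 to 13441 over the alternatives (10654 to 11100 when leaving out each library). With library totals 2938 were higher and 10503 lower, against 5203 and 6231. The number of calls in the knockout comparisons moved more. With medium alone 331 genes were called, 1152 with no filter, 1023 with the replicate block and 22 to 351 when leaving out each library, the lowest without the first *Ncoa6*-sufficient library there. With LPS + MSU 632 were called, 1611 with no filter, 1532 with the replicate block and 49 to 765 when leaving out each library, the lowest without the first *Ncoa6*-sufficient library there and 63 without the second *Ncoa6*-KO library. There 345 were higher and 287 lower, against 346 and 503 with DESeq2 and 480 and 218 with library totals. Among the tested *Ms4a* genes outside the list, *Ms4a14* was also called with medium alone with no filter (-0.38, adjusted p = 0.0348). The median of the 8 genes lay between -1.95 and -0.58 (medium alone) and between -1.61 and -0.72 (LPS + MSU) when leaving out each library, and was -1.12 and -1.14 with the replicate block. The cause of these shifts was not tested.

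Libraries with the same number deviated together with correlations of 0.0418 to 0.353 over 11219 genes in the 6 pairs of groups. The labels do not say that a number marks a shared mouse or day, and no pairing was assumed. A left-out library leaves a group of 1, whose spread is then assumed to be that of the other groups. With 2 libraries a group, tests of single genes rest on the spread shared over genes, and at this depth the knockout difference of *Ms4a8a* after LPS + MSU was within counting error.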
